A study of Drosophila melanogaster with 31 samples.

Results

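Transcripts of 10 Drosophila melanogaster receptor genes for serotonin, dopamine and octopamine were measured by RNA-seq in antennae and brains. The genes were taken by name: the serotonin receptors 5-HT1A, 5-HT1B, 5-HT2A, 5-HT2B and 5-HT7, the dopamine receptors Dop1R1, Dop1R2, Dop2R and DopEcR, and the octopamine receptor Oamb. They are 10 of the 13821 genes that the files cover, and all 10 passed the filter on low counts in both tissues.

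These receptors span the membrane and signal through G proteins, and each couples a monoamine released by a small set of neurons to slow changes in the cells that receive it. 5-HT1A, 5-HT1B and Dop2R lower cyclic AMP, whereas 5-HT7, Dop1R1 and DopEcR raise it, and the 5-HT2 receptors and Oamb act through calcium, Oamb also through cyclic AMP. In the fly brain they are known for roles in learning, sleep, arousal and feeding, with Dop1R1, Dop1R2 and Oamb prominent in the mushroom bodies, and DopEcR also responds to the steroid hormone ecdysone.

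All flies were males. The antennal libraries, 2 per group, came from the second and the third antennal segments of flies aged 4 to 5 days. Antennae of the Orco mutant (labelled w*; TI{TI}Orco2, here Orco2) and of the wild-type strain OreR were each taken after odor and light and from flies kept without these stimuli (0 min). The label of the stimulated antennae lists the times 10, 20 and 30 min. The brain libraries all came from OreR. Brains of flies aged 4 to 5 days (called 5-day) were taken at 0, 10, 20, 30 and 45 min of odor and light in triplicate, and those from 10-day and 25-day flies at 0 and 30 min in duplicate. Each genotype is 1 strain, so the Orco allele, the w allele and the strain background cannot be told apart. The series calls the replicates biological. How many flies went into a library is not given, so the p-values measure the spread between these libraries.

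Libraries held 18529552 to 54881247 estimated counts in antennae and 19315566 to 76745338 in brains. Levels of 1 gene are compared between libraries as normalised CPM, and levels of different genes as TPM, which also take transcript length into account. The mutated gene was checked first: Orco stood at 5.77 to 6.52 TPM in the Orco2 libraries and at 1360 to 1412 TPM in the OreR antennae. The olfactory marker genes Orco, Ir25a and Ir8a summed to 2.02 to 16.3 TPM in brains, and the neuronal genes elav, nSyb, brp, Syt1 and futsch summed to 468 to 731 TPM in antennae and 2923 to 5453 TPM in brains. Some libraries stood apart. In 5 of the 23 brain libraries (5-day B and C at 0 min, 5-day C at 20 min, 25-day B at 0 and 30 min) the summed ribosomal protein transcripts were under 0.75 of the brain median. The digestive tract markers reached 28240 TPM in the 10-day A library at 30 min and at most 1080 TPM in the other brains. Photoreceptor markers summed to 743 to 8010 TPM in antennae.

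DopEcR was the most abundant of the receptors per transcript length in all 8 antennal and all 23 brain libraries. It made up 63.1% to 71.0% of the summed TPM of the 10 genes in antennae and 48.8% to 57.2% in brains, while that sum was 153 to 250 TPM in antennae and 698 to 1211 TPM in brains. In OreR antennae at 0 min DopEcR stood at 134 and 173 TPM, followed by Oamb at 30.8 and 33.1 TPM, and no other receptor exceeded 12.1 TPM. 5-HT2B, Dop1R2 and 5-HT1A came next with overlapping neighbours (8.69 and 12.1, 7.30 and 8.95, 5.34 and 7.95 TPM). 5-HT1B followed at 4.57 and 5.14 TPM, and 5-HT7, Dop1R1 and 5-HT2A overlapped in that order between 1.86 and 3.44 TPM. Dop2R was last in all 8 antennal libraries, at 0.414 and 0.808 TPM in these OreR antennae.

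The order in brains was different below DopEcR. In 5-day brains at 0 min DopEcR stood at 516.5, 665.5 and 647 TPM. 5-HT1A (81.2 to 88.6 TPM), Oamb (56.9 to 96.1 TPM), Dop1R1 (57.8 to 86.3 TPM), 5-HT1B (60.1 to 74.8 TPM), Dop2R (49.5 to 64.4 TPM), Dop1R2 (43.2 to 52.2 TPM), 5-HT2A (35.0 to 45.6 TPM) and 5-HT7 (39.6 to 40.7 TPM) followed, each overlapping the next. 5-HT2B came last at 27.0 to 30.0 TPM, below the range of 5-HT7, and it was the lowest of the 10 in 21 of the 23 brain libraries. 5-HT2A was the lowest in the other 2, the 25-day B libraries.

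**Figure D1:**
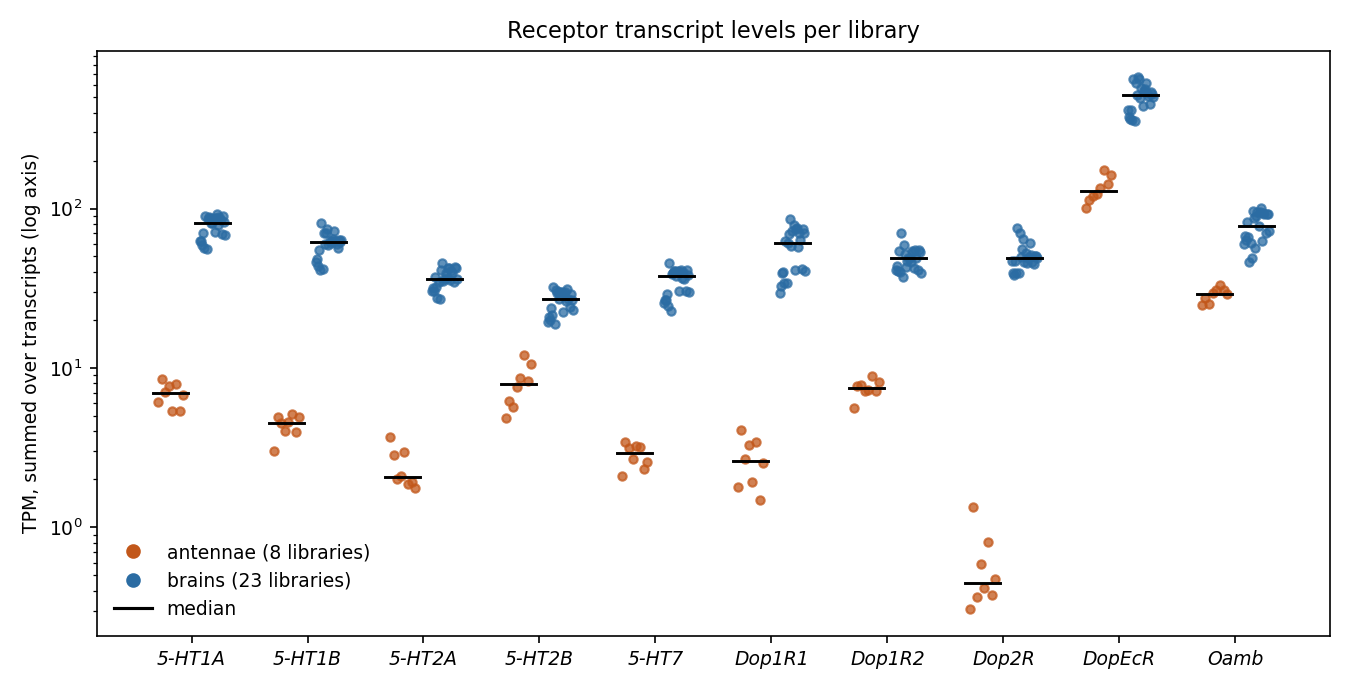
TPM of each receptor in every library, on a log axis, antennae left of brains, with the median as a bar. DopEcR lies above the other receptors in both tissues, and Dop2R is lowest in antennae (median 0.444 TPM) and mid-range in brains (median 49.2 TPM). 5-HT2B has the lowest median in brains (27.0 TPM) and a median above 7 other receptors over all antennae (7.89 TPM). In Orco2 antennae alone its median was 5.92 TPM, below Dop1R2 (7.43 TPM) and 5-HT1A (7.38 TPM).

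OreR antennae held less of all 10 receptor transcripts than 5-day OreR brains at 0 min, by amounts that ran from 1.60 to 54.0 times. The inhibitory dopamine receptor Dop2R differed most and Oamb least. All 10 were called lower at an adjusted p under 0.05 (edgeR's quasi-likelihood test, adjusted over 11772 genes), where 58.1% of all genes were called and 28% were called lower. The libraries of the 2 tissues did not overlap for any of the 10, and 32.6% of all genes were lower without overlap. In bulk tissue, fewer cells of a type and less RNA per cell cannot be told apart. The neuronal marker sum moved with the receptors, at 548 and 731 TPM in these antennae and 4822 to 5272 TPM in these brains. Photoreceptor markers went the other way, at 743 and 6697 TPM in these antennae and 202 to 332 TPM in these brains. The part of either sum in the result was not tested.

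Among the dopamine receptors, Dop2R stood at 1.54 and 3.27 CPM in antennae and at 127, 129 and 137 CPM in brains (log2 fold change -5.75 ± 0.46, SE; adjusted p = 1.09e-09). Dop1R1, which raises cyclic AMP and is needed in the mushroom body for olfactory learning, stood at 21.4 and 38.6 CPM in antennae and at 478, 589.9 and 392 CPM in brains (-4.02 ± 0.47; adjusted p = 2.37e-07). Both receptors were thus far below their brain range in each antennal library. Dop1R2, the other receptor of the Dop1R class, was closer, at 27.0 and 33.4 CPM in antennae and 123, 97.6 and 105 CPM in brains (-1.84 ± 0.25; adjusted p = 1.74e-06). DopEcR stood at 388 and 505 CPM in antennae and at 896, 1170 and 1140 CPM in brains (-1.26 ± 0.22; adjusted p = 3.8e-05).

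Of the serotonin receptors, 4 were 7.73 to 10.4 times lower in antennae and 5-HT2B was 1.701 times lower. 5-HT2A, which acts through calcium, stood at 7.73 and 4.82 CPM in antennae and at 66.8, 72.3 and 56.5 CPM in brains (-3.38 ± 0.21; adjusted p = 2.99e-11). 5-HT1A and 5-HT1B, which lower cyclic AMP, had folds of -2.98 ± 0.24 and -3.08 ± 0.23 on the log2 scale (adjusted p = 1.29e-09 and 4.74e-10). 5-HT1A had 19.7 and 29.3 CPM in antennae against 181.5 to 205 CPM in brains, and 5-HT1B 13.3 and 14.9 CPM against 109 to 126.5 CPM. 5-HT7, which raises cyclic AMP, had 10.5 and 10.1 CPM in antennae and 78.2 to 81.1 CPM in brains (-2.95 ± 0.27; adjusted p = 7.03e-09). All 4 stayed at or below 29.3 CPM in antennae and at or above 56.5 CPM in brains.

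5-HT2B and Oamb came closest to equal levels. 5-HT2B stood at 40.9 and 57.4 CPM in antennae and 86.8, 86.7 and 77.2 CPM in brains (-0.77 ± 0.22; adjusted p = 0.00563). Oamb, the octopamine receptor, stood at 80.7 and 87.3 CPM in antennae and at 163, 145 and 96.4 CPM in brains (-0.68 ± 0.23; adjusted p = 0.0169). The lowest brain library of Oamb, 5-day C, was 1 of the 5 low in ribosomal protein transcripts, and without those 5 the fold of Oamb was -0.96. Both calls rest on few libraries: without antenna A the adjusted p was 0.103 for Oamb and 0.114 for 5-HT2B, and for Oamb it was 0.0528 without antenna B and 0.0763 without brain A. The median over all genes tested was 0.17, so all 10 receptors also lay below that shift.

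**Figure D2:**
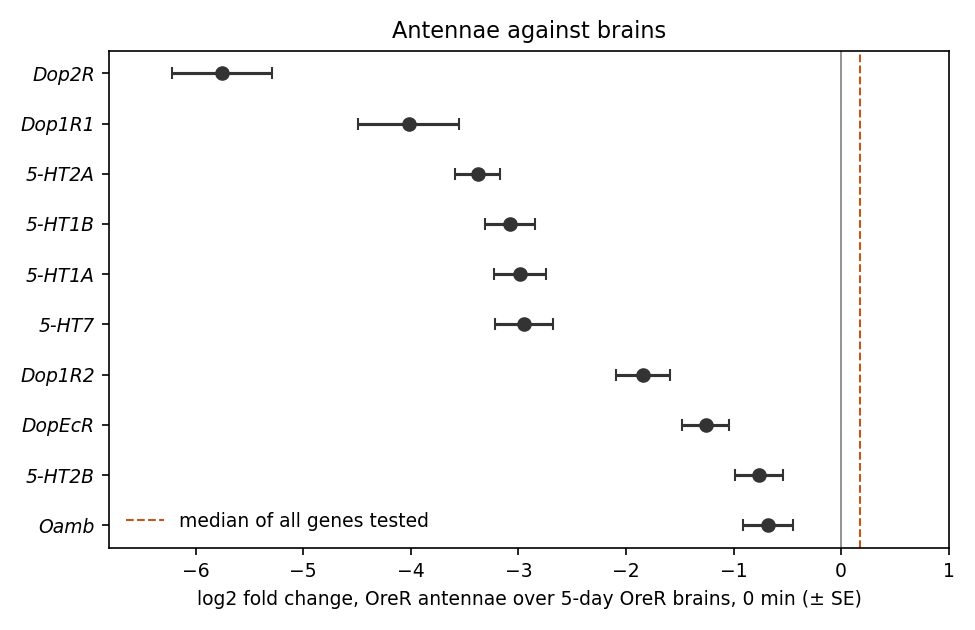
Log2 fold change of each receptor in OreR antennae over 5-day OreR brains at 0 min, with its SE as a bar and the median of all genes tested (0.17) as a dashed line. All 10 points are negative, from -0.68 for Oamb to -5.75 for Dop2R.

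The other genes of the monoamine pathways did not all follow the receptors. Of all genes, 58.1% were called between these tissues and 28% were called lower in antennae. All 7 other octopamine and tyramine receptor genes were called lower in antennae (median log2 -2.98), among them Oct-TyrR (-3.51 ± 0.27; adjusted p = 6.77e-10), TyrR (-3.97 ± 0.34), Octalpha2R (-2.98 ± 0.37) and Octbeta2R (-3.18 ± 0.47). Of 14 genes for synthesis, packaging, uptake and inactivation, 8 were lower and 5 higher (median -1.82). Tbh, which makes octopamine from tyramine, stood at 0.969 and 1.06 TPM in antennae and at 77.5 to 91.2 TPM in brains (-5.71 ± 0.39; adjusted p = 8.36e-11). Ddc, the decarboxylase that completes dopamine and serotonin synthesis, was also lower (-4.18 ± 0.30), as was ebony (e), which couples beta-alanine to dopamine (-3.27 ± 0.32). Pu, the GTP cyclohydrolase that starts synthesis of the tetrahydrobiopterin cofactor, was higher, at 75.5 and 92.9 TPM in antennae and 27.3 to 35.2 TPM in brains (2.20 ± 0.14; adjusted p = 5.9e-11). The serotonin transporter gene SerT was at 86.2 and 87.9 TPM in antennae and 20.7 to 35.8 TPM in brains (2.40 ± 0.31; adjusted p = 1.01e-06). SerT is named after its values were seen. Of 17 genes of G protein signalling, 15 were lower and 1 higher (median -1.39), with Galphao (-2.94 ± 0.36), Plc21C (-2.41 ± 0.26), Gprk2 (-1.39 ± 0.15) and Itpr (-1.39 ± 0.22) among the lower.

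None of the 10 receptors was called between Orco2 and OreR antennae in either state by edgeR. 5-HT2B and DopEcR were lower without overlap in each state, as were 23.2% of all genes at 0 min and 20.7% after odor and light. At 0 min 5.36% of the 11298 genes tested were called, and after odor and light 7.15%. An unadjusted p under 0.05 was reached by 2 receptors at 0 min (16.3% of all genes) and by none after odor and light (21.8% of all genes), and DESeq2 called 1 at 0 min and none after odor and light.

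5-HT2B stood at 23.8 and 29.2 CPM in Orco2 antennae and at 40.9 and 57.4 CPM in OreR antennae at 0 min (-0.86 ± 0.24; adjusted p = 0.117). After odor and light it stood at 27.9 and 37.2 CPM in Orco2 and at 38.8 and 52.3 CPM in OreR (-0.50 ± 0.24; adjusted p = 0.295). The genotypes did not overlap in either state. DopEcR stood at 307 and 331 CPM in Orco2 and at 388 and 505 CPM in OreR at 0 min (-0.44 ± 0.15; adjusted p = 0.199), and at 358 and 376 CPM in Orco2 and 407 and 491 CPM in OreR after odor and light (-0.31 ± 0.15; adjusted p = 0.314), again without overlap. Oamb did not overlap at 0 min only, with 68.8 and 72.6 CPM in Orco2 and 80.7 and 87.3 CPM in OreR (-0.21 ± 0.11; adjusted p = 0.421). At 0 min these 3 receptors were lower in Orco2 without overlap (23.2% of all genes) and none was higher without overlap. After odor and light 5-HT2B and DopEcR were lower without overlap (20.7% of all genes), and 5-HT1A, 5-HT2A, 5-HT7 and Dop1R1 were higher without overlap (29% of all genes), with log2 differences of 0.15 to 0.56 and no adjusted p under 0.529.

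The antennal libraries came in pairs by fragment length, the value that the files imply by the difference between a transcript's length and its effective length. It was 298 bases in Orco2 B and 301 in OreR A, and 354 in Orco2 C and OreR B. Within the shorter pair, 5-HT2B differed by a log2 of -0.78 at 0 min and -0.47 after odor and light, and within the longer pair by -0.98 and -0.49. DopEcR differed by -0.34 and -0.19 in the shorter pair and by -0.61 and -0.39 in the longer. Both were therefore lower in Orco2 in 4 of 4 pairs, while 5-HT1A and 5-HT2A were higher in 4 of 4 (0.09 to 0.47 and 0.12 to 0.58) and the other 6 were mixed. The share of all genes with the same direction in 4 of 4 pairs was not computed, so these counts only describe the receptors. With each fragment length as a class in the fit, edgeR called 5-HT2B and DopEcR at 0 min, where 10.1% of all genes were called (-0.89, adjusted p = 0.00339, and -0.55, adjusted p = 0.0053). Both were also called after odor and light, where 13.2% were called (-0.55, adjusted p = 0.0159, and -0.42, adjusted p = 0.0133). As 298 bases occurred only in Orco2 and 301 only in OreR, the genotype difference averaged over both states rests on the 354-base libraries in that fit. It is therefore not an adjusted result over both pairs. DESeq2 without the covariate called 5-HT2B at 0 min (adjusted p = 0.0187; 10% called). Neuronal markers summed to 468 to 596 TPM in Orco2 and 502 to 731 TPM in OreR, photoreceptor markers to 2118 to 8010 TPM in Orco2 and 743 to 6697 TPM in OreR, and fat body markers to 3159 to 4012 TPM in Orco2 and 2167 to 2392 TPM in OreR. Their part in these differences was not tested.

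**Figure D3:**
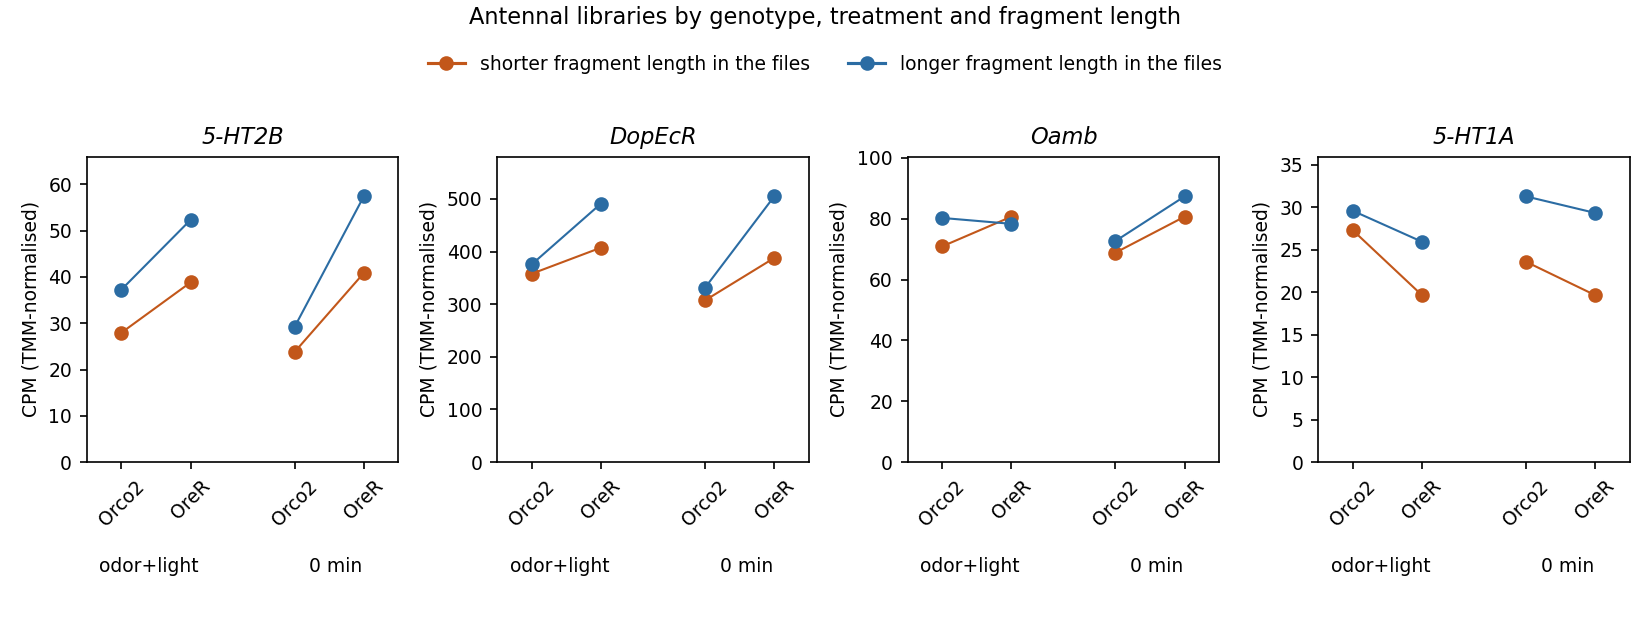
CPM of 5-HT2B, DopEcR, Oamb and 5-HT1A in the antennal libraries, Orco2 left of OreR, with stimulated flies left of 0 min. Lines join the libraries of like fragment length. Orco2 lies below OreR on all 4 lines for 5-HT2B and DopEcR and on 3 of 4 for Oamb, and above OreR on all 4 for 5-HT1A.

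Genes of amine synthesis did pass between the genotypes. Hn, the phenylalanine hydroxylase that supplies tyrosine, stood at 185 and 212 TPM in Orco2 and 41.5 and 49.6 TPM in OreR at 0 min (2.19 ± 0.13; adjusted p = 0.000406), and after odor and light it was higher by 1.29 ± 0.13 (adjusted p = 0.00278). Ddc stood at 30.95 and 45.62 TPM in Orco2 and 11.3 and 13.4 TPM in OreR at 0 min (1.71 ± 0.21; adjusted p = 0.00562) and was higher by 1.68 ± 0.21 after odor and light. ebony was lower after odor and light, at 2.42 and 2.67 TPM in Orco2 and 8.45 and 8.26 TPM in OreR (-1.69 ± 0.30; adjusted p = 0.0201). In all, 2 of the 14 synthesis and inactivation genes were called higher and none lower at 0 min, where 5.36% of all genes were called. After odor and light 2 were called higher and 1 lower, where 7.15% of all genes were called. Among the 17 signalling genes 1 was called after odor and light, where 7.15% of all genes were called, and none at 0 min. It was Itpr, the calcium release channel of the endoplasmic reticulum, which was higher (1.38 ± 0.24, adjusted p = 0.0198 in edgeR). None of the 7 other amine receptors was called in either state. The calls of Hn and Ddc held in all 12 settings tried for each state, those of ebony and Itpr in 8 of 12.

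Odor and light were not followed by a called change of any receptor, in antennae or in brains of any age. No gene at all was called in the OreR or Orco2 antennae (0% of 11298 genes), nor at 10, 20, 30 or 45 min in 5-day brains, nor at 30 min in 10-day or 25-day brains (0% of 10431 genes), by edgeR. DESeq2 called none of the 10 receptors in these comparisons. An unadjusted p under 0.05 was reached by 1 receptor in Orco2 antennae (2.13% of genes). No receptor reached it in OreR antennae (1.65% of genes), in 5-day brains at 10 min (1.96%), 20 min (0.892%), 30 min (2.2%) or 45 min (1.74%) or in the joint test over these times (1.74%), in 10-day brains (3.21%) or in 25-day brains (0.719%).

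In antennae that receptor was 5-HT2A, at 5.25 and 5.52 CPM in stimulated and 9.90 and 7.20 CPM in 0 min Orco2 flies (-0.72 ± 0.28; unadjusted p = 0.0361, adjusted p = 1 in edgeR). In OreR it stood at 4.83 and 4.79 CPM in stimulated and 7.73 and 4.82 CPM in 0 min flies (-0.37 ± 0.28). The odor and light response differed between genotypes for none of the 10, the largest difference being 0.46 on the log2 scale (5-HT7), with an adjusted p of 1 for each in edgeR and no unadjusted p under 0.05 (2.8% of genes). In Orco2, 5-HT2A was the 1 receptor lower without overlap (13.6% of genes) and DopEcR the 1 higher (23.1%), and in OreR 5-HT7 and Oamb were lower without overlap (12.6%).

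In 5-day brains edgeR called none of the 10 receptors over the time course. DopEcR averaged 1069 ± 150 CPM at 0 min, 889 ± 84.5 at 10 min, 1018 ± 41.7 at 20 min, 908 ± 82.8 at 30 min and 940.1 ± 51.3 CPM at 45 min (SD, n = 3 each). Dop1R1 averaged 486.5 ± 99.3, 442 ± 124, 479.7 ± 87.7, 421 ± 114 and 437 ± 140.0 CPM in the same order. Oamb averaged 135 ± 34.3 CPM at 0 min and 148 to 149.8 CPM at the later times. The libraries of each later time overlapped those of 0 min for these 3. Dop2R at 10 min was the 1 receptor without overlap, at most 126 CPM at 10 min and at least 127 CPM at 0 min (lower without overlap for 2.23% of genes). Replicate letters pair the libraries of 10 and 0 min, and within letters DopEcR, 5-HT1B, 5-HT7 and Dop2R were lower at 10 min in 3 of 3 pairs. The smallest of these log2 differences was -0.01 (5-HT7 in B), and the share of all genes lower in 3 of 3 pairs was not computed. DopEcR differed by a log2 of -0.07 in A, -0.25 in B and -0.46 in C, and with the letter as a block by -0.29 (adjusted p = 0.694 in edgeR, the lowest adjusted p among the 10, shared with Oamb). The other 6 receptors had pairs in both directions. Over the 4 times the log2 changes of the 10 receptors ran from -0.29 to 0.14, and the joint test over times gave a lowest unadjusted p of 0.576, for DopEcR, with an adjusted p of 1 in edgeR.

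The older brains gave the same count of calls. In 10-day brains 9 of the 10 receptors were on the positive side at 30 min, and 7 of them without overlap with 0 min, where 17.4% of all genes were higher without overlap. The median log2 change over all genes there was -0.02. As many of the receptors' levels were correlated over the brain libraries, these signs are not separate observations. The 10-day A library at 30 min held 28240 TPM of digestive tract markers, and the part of this in the result was not tested. Dop1R1 was the most changed, at 299 and 267 CPM at 30 min and 212 and 233.5 CPM at 0 min (0.34 ± 0.37; adjusted p = 1). In 25-day brains the log2 changes ran from -0.14 to 0.10 and none was without overlap. The 30 min response of 10-day and 25-day brains differed from that of 5-day brains for none of the 10, with differences of up to 0.56 (Dop1R1 in 10-day brains) an adjusted p of 1 for each in edgeR and no unadjusted p under 0.05 (3.09% and 0.757% of genes).

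No receptor was called between ages by edgeR, while DESeq2 called Dop1R1 at 10 days and Oamb and 5-HT2A at 25 days. Against 5-day brains, all 10 had a lower fitted level in 10-day brains at both 0 and 30 min, and 8 in 25-day brains averaged over 0 and 30 min. The median log2 difference over all genes was 0.06 and 0.04 at 10 days and 0.02 at 25 days. The share of all genes with a lower fitted level was not computed. As many of the receptors' levels were correlated over the brain libraries, their signs are not separate observations. None of the 10 was called by edgeR in the 10-day brains at 0 min (0.115% of all genes called), at 30 min (0.671%) or in the mean of both times (3.3%), nor in the 25-day brains at 0 min (1.65%), at 30 min (0.489%) or in the mean (12%). At an unadjusted p under 0.05 there were 6 receptors at 10 days and 0 min (16.8% of all genes), none at 30 min (8%) and 7 in the mean (22%), and at 25 days 1 at 0 min (15.8%), 1 at 30 min (17.8%) and 2 in the mean (30.6%). The comparisons with 5-day brains share those 5-day libraries.

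Dop1R1 differed most at 10 days. It stood at 212 and 233.5 CPM in 10-day brains and at 478, 589.9 and 392 CPM in 5-day brains at 0 min (-1.13 ± 0.35; adjusted p = 0.146), and at 299 and 267 CPM in 10-day and 505, 466 and 292 CPM in 5-day brains at 30 min. The groups did not overlap at 0 min, and at 30 min the 10-day A library lay above 5-day C. Over both times its log2 difference was -0.84 ± 0.25 (adjusted p = 0.0686 in edgeR, 0.0147 in DESeq2, which called 10.7% of all genes). At 0 min 8 of the 10 receptors were below 5-day brains without overlap, all but Dop1R2 and Oamb, against 17.8% of all genes, and at 30 min 5 were, against 15.5%. DopEcR stood at 775 and 697 CPM in 10-day and 896, 1170 and 1140 CPM in 5-day brains at 0 min (-0.54 ± 0.23; adjusted p = 0.248), and 5-HT7 at 53.5 and 55.5 CPM in 10-day and 78.2, 81.1 and 79.4 CPM in 5-day brains (-0.55 ± 0.24; adjusted p = 0.26).

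Neuronal markers moved the same way, summing to 3071 to 3630 TPM in the 4 10-day libraries and 3667 to 5272 TPM in the 15 5-day libraries, and ribosomal protein transcripts the other way, at 130200 to 143300 TPM in 10-day and 62270 to 117900 TPM in 5-day brains. Glial markers summed to 1381 to 1655 TPM in 10-day and 1986 to 2935 TPM in 5-day brains. Mushroom body markers overlapped between these ages. They summed to 583 to 765 TPM (median 735) in 10-day and 606 to 762 TPM (median 665) in 5-day brains. The part of these marker and ribosomal protein sums in the receptor differences was not tested. Fragment length was 325 or 335 bases in 10-day brains and 335 or 369 in 5-day brains. With each length as a class in edgeR, the mean difference of Dop1R1 was -0.43 (adjusted p = 0.541). As 325 bases occurred only in older brains and 369 only in 5-day A and B libraries, length was partly confounded with age and replicate letter.

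At 25 days Oamb and 5-HT2A came nearest to a call. Oamb stood at 116 and 81.4 CPM in 25-day and 163, 145 and 96.4 CPM in 5-day brains at 0 min, and at 111 and 86.2 CPM in 25-day and 166, 164 and 119 CPM in 5-day brains at 30 min. Its groups overlapped at 0 min and not at 30 min, where 13.2% of all genes were lower without overlap. Over both times its log2 difference was -0.52 ± 0.17 (adjusted p = 0.0546 in edgeR and 0.0287 in DESeq2, which called 18.7% of all genes). 5-HT2A stood at 55.1 and 45.5 CPM in 25-day and 66.8, 72.3 and 56.5 CPM in 5-day brains at 0 min, without overlap (8.2% of all genes; log2 difference -0.31 ± 0.10 over both times; adjusted p = 0.0546 in edgeR and 0.0321 in DESeq2). Both were also called by edgeR when 1 of 4 libraries was left out (5-day C or 25-day A, at 0 or at 30 min, where a 25-day group without A has 1 library; adjusted p 0.0192 to 0.0388 for Oamb and 0.0219 to 0.0372 for 5-HT2A), where 13.7% to 31% of all genes were called.

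Hemocyte markers summed to 37.7 to 60.3 TPM in 25-day and 5.37 to 21.3 TPM in 5-day brains, and fat body markers to 524.5 to 808 TPM in 25-day and 291 to 525.7 TPM in 5-day brains. Their part in these differences was not tested.

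The 25-day libraries disagreed by letter. In the B libraries, low in ribosomal protein transcripts, Dop1R1 stood at 448 and 441 CPM at 0 and 30 min, and in the A libraries at 247 and 254 CPM. DopEcR stood at 1194 and 1142 CPM in B and at 688 and 694 CPM in A. Of the 10 receptors 8 were higher in both B libraries than in both A libraries, and Oamb and 5-HT2A were lower. The share of all genes that separated these letters was not computed, so the split is not particular to the receptors as far as is known. The neuronal gene elav stood at 218 and 211 TPM in B and 100.1 and 94.8 TPM in A. Without the 5 libraries low in ribosomal protein transcripts, which leaves 1 library at each time at 25 days and 1 in 5-day brains at 0 min, all 10 receptors were lower at 25 than at 5 days, by 0.18 to 0.84 on the log2 scale, and the 4 called over both times were 5-HT1B (-0.46; adjusted p = 0.00677), 5-HT1A (-0.53; 0.0372), 5-HT7 (-0.58; 0.0373) and DopEcR (-0.39; 0.041), where 13.8% of all genes were called. That fit takes the lone library of each of these 3 groups to vary like the other groups. Oamb (adjusted p = 0.0768) and 5-HT2A (0.259) were then not called.

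Between 25-day and 10-day brains no receptor was called in edgeR (0% of genes at 0 min and at 30 min, 0.00959% in the mean of both), with none at an unadjusted p under 0.05 at 0 min (3.28%) or 30 min (5.76%), 2 in the mean (19%), and none called by DESeq2. The fitted differences were positive for 8 of the 10 in the mean, where the median over all genes was -0.01. 5-HT2B and Dop1R1 were higher without overlap at 0 min (11.7% of all genes), and Oamb was lower without overlap at 30 min (17.8%). Without 25-day A at 0 min, 5-HT1B, 5-HT7, Dop2R and DopEcR were called higher at 0 min (22.4% of all genes called) and 5-HT2B joined them in the mean (35.9%), as it did without 25-day A at 30 min (30.9%). Each of these fits rests on 1 library for that 25-day group, B, which is low in ribosomal protein transcripts and is taken to vary like the other groups. Without 25-day B at 0 min, which leaves 25-day A alone, 8 of the 10 changed sign at 0 min: 5-HT1A (-0.14), 5-HT1B (-0.19), 5-HT7 (-0.10), Dop1R2 (-0.08), Dop2R (-0.03) and DopEcR (-0.12) were then negative, and Oamb (0.07) and 5-HT2A (0.05) positive.

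**Figure D4:**
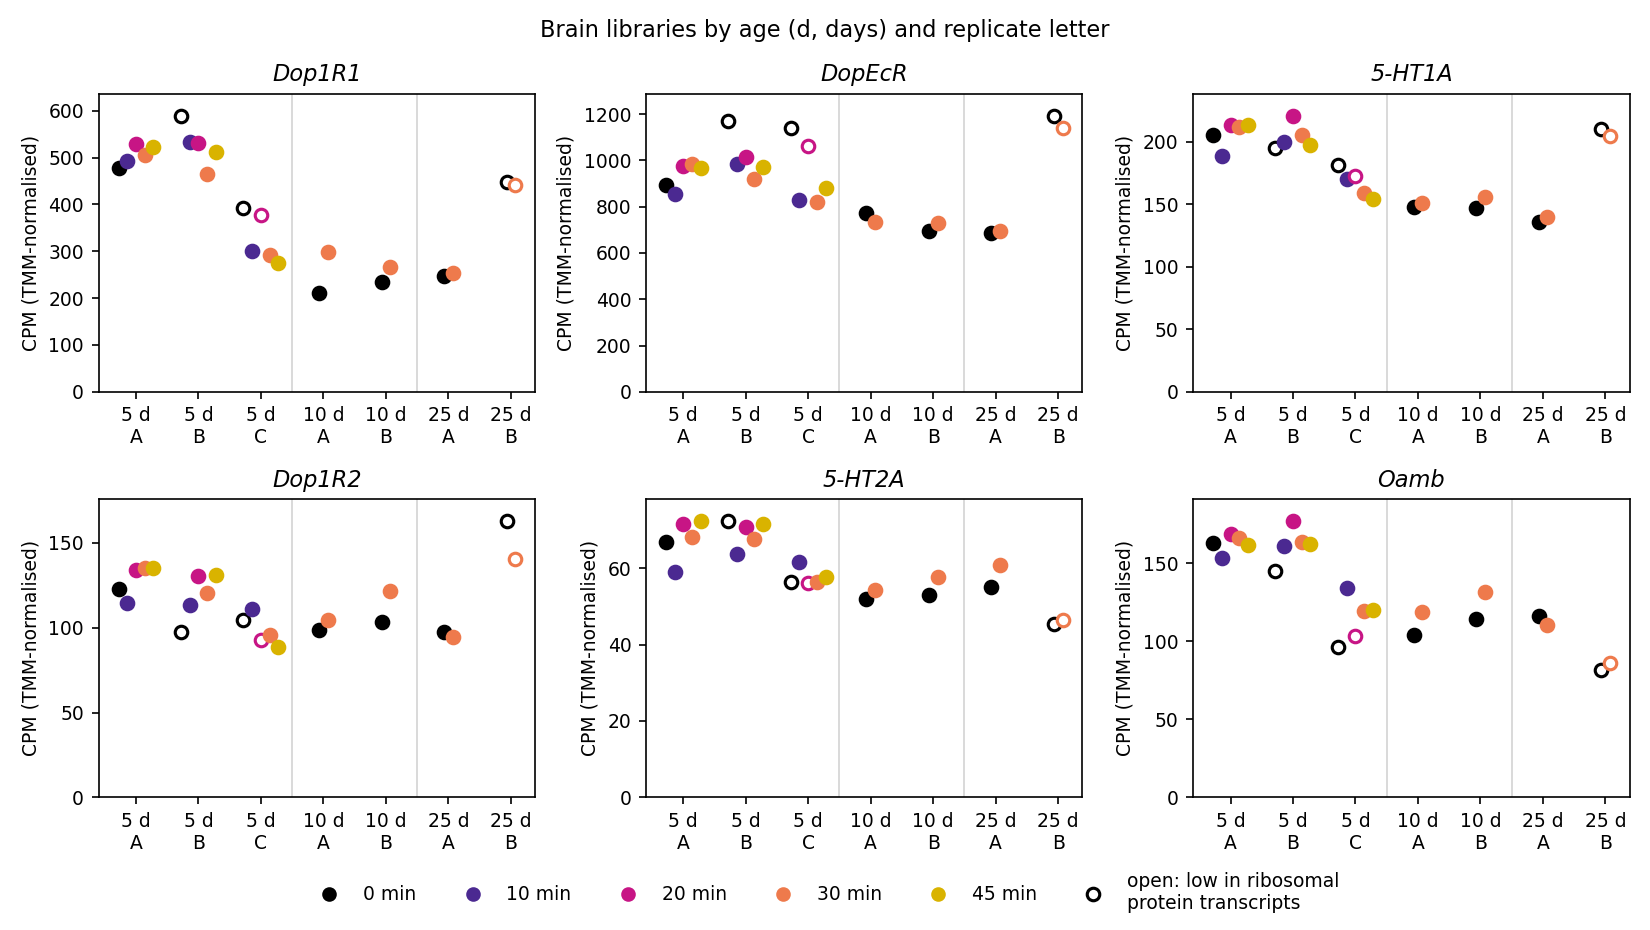
CPM of 6 receptors in the 23 brain libraries, by age in days and replicate letter, with colours for minutes of odor and light and open points for the 5 libraries low in ribosomal protein transcripts. The 25-day B libraries are at the level of 5-day brains or above for Dop1R1, DopEcR, 5-HT1A and Dop1R2, and below the other brains for 5-HT2A and Oamb, and the 5-day C libraries are low for Dop1R1 (275 to 392 CPM).

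A split by letter was also present within the 5-day brains. The C libraries held 275 to 392 CPM of Dop1R1 over the 5 times, and the A and B libraries 466 to 589.9 CPM. Oamb stood at 96.4 to 134 CPM in C and at 145 to 177 CPM in A and B. Neither gene overlapped between C and the other letters at any time. elav stood at 99.1 to 166 TPM in C, with the A and B libraries at 162 to 192 TPM. The neuronal marker sum overlapped more widely, at 3667 to 5123 TPM in C and 4513 to 5272 TPM in A and B. nSyb alone stood at 1739 to 2339 TPM in C and 1813 to 2213 TPM in A and B. Mushroom body markers summed to 641 to 762 TPM in C and 606 to 694 TPM in A and B. Replicate letter, depth (42201236 to 61968609 counts in C, 19315566 to 29543769 in A and B) and cell content cannot be told apart here.

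Among the 14 genes for amine handling, 2 were called higher and 2 lower in 25-day brains over both times, where 12% of all genes were called. Hn stood at 26.3 to 53.1 TPM in the 4 25-day and 6.74 to 17.7 TPM in the 6 5-day libraries of these times (1.53 ± 0.33; adjusted p = 0.00776), and Pu was higher by 0.42 ± 0.12 (adjusted p = 0.0268). SerT stood at 9.51 to 23.4 TPM in 25-day and 20.7 to 37.6 TPM in 5-day brains (-0.83 ± 0.24; adjusted p = 0.0338), and ebony was lower by a log2 of -0.72 ± 0.18 (adjusted p = 0.0196). The hemocyte and fat body marker sums given above ran higher in 25-day than in 5-day brains, with the fat body ranges meeting. Hn and Pu moved in the same direction as these sums, and SerT and ebony in the opposite one. The part of the sums in the changes of these 4 genes was not tested. The direction held for all 4 in 20 settings, with calls in 19 for Hn, 15 for ebony and 12 each for Pu and SerT. None of the 7 other amine receptors and none of the 17 signalling genes was called at 10 or 25 days.

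The split of each receptor's reads over its annotated transcripts was uneven and, for some genes, differed more between libraries than the gene's total did. kallisto shares reads between transcripts that overlap, so these shares are estimates. Dop1R1 was assigned at 94.7% or more to Dop1R1-RD in all libraries, a transcript of 14565 bases of which 12541 are 3′ untranslated. 5-HT2B was likewise assigned at 95.7% or more to 5-HT2B-RF, which has the longest 3′ untranslated region of its 3 transcripts (2975 bases). Some pairs had equal values in every library, such as Dop1R2-RA and Dop1R2-RC, so their reads were not separated.

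5-HT1B had 2 transcripts in use, which differ in the coding part. 5-HT1B-RE holds 165 coding bases that 5-HT1B-RD lacks (chromosome 2R:19024645-19024809, minus strand, Ensembl BDGP6.54). The RD transcript made up 52.3% to 98.5% of the gene's TPM in the 5 brain libraries low in ribosomal protein transcripts and 0.0181% to 52.3% (median 5.79%) in the other 18, so the ranges met at 52.3%. In 25-day brains it took 98.5% and 98.3% in B and 8.3% and 0.0181% in A. The shares thus followed the library more than the age.

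Dop1R2-RB carries an exon of 174 bases (3R:29638932-29639105, minus strand), 87 of them coding, that the other 2 transcripts of Dop1R2 lack. It took 0.426% to 18.1% of the gene's TPM in the same 5 libraries and 22.7% to 74.1% in the other 18, without overlap. At 0 min in 5-day brains the share was 54.8% in A, 18.1% in B and 6.08% in C. Antennae lay between 7.75% and 48.0%. The gene's total did not follow, at 123, 97.6 and 105 CPM in those 3 brain libraries.

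DopEcR-RA ends 1485 bases short of the other 2 transcripts (3L:4367649-4369133, minus strand), with the same coding sequence and a 3′ untranslated region of 27 bases where the others have 1512. It took 6.33% to 16.7% of DopEcR in the 5-day A and B libraries, 0.268% to 1.33% in the 5-day C libraries and 0.047% to 5.02% in the 10-day and 25-day libraries. Antennae held 0.857% to 11.2%. As the C libraries were of the same age as A and B, a lower share in older brains cannot be told apart from differences between libraries.

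**Figure D5:**
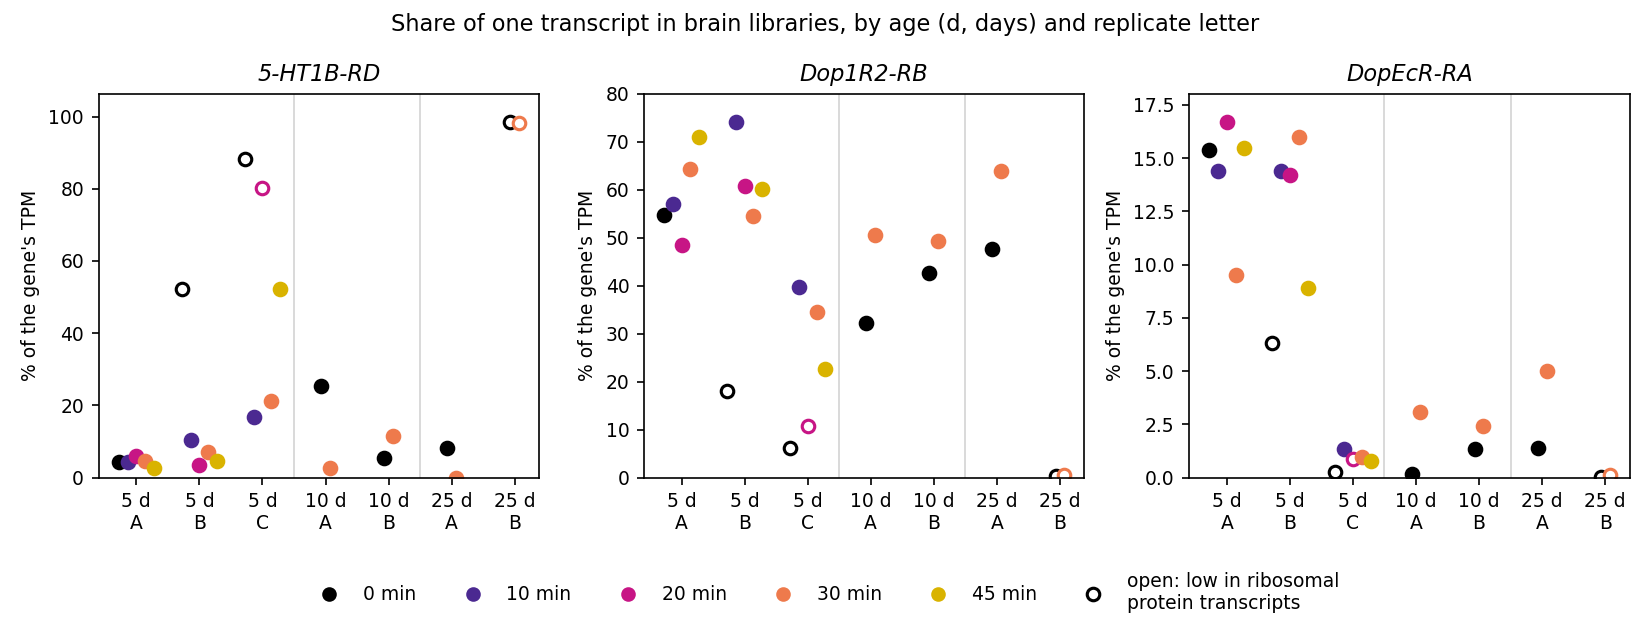
Share of 5-HT1B-RD, Dop1R2-RB and DopEcR-RA in their gene's TPM in the 23 brain libraries, laid out by age and replicate letter, with open points for the 5 libraries low in ribosomal protein transcripts. Open points are high for 5-HT1B-RD (52.3% to 98.5%), low for Dop1R2-RB (0.426% to 18.1%), and at most 6.33% for DopEcR-RA.

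Over the 23 brain libraries the receptors' levels were correlated to different degrees, given here as a description, since libraries of 1 letter and treatment share depth and cell content. Pearson correlations of log2 CPM ran from 0.48 (Dop1R2 with DopEcR) to 0.97 (5-HT1A with 5-HT7) among the 8 receptors other than Oamb and 5-HT2A. Oamb and 5-HT2A were closest to each other (0.88), and their correlations with the other 8 ran from -0.13 (Oamb with Dop2R) to 0.54 (5-HT2A with Dop1R1), so the ranges overlap. Of all other genes with a mean log2 CPM of at least 1, Dop1R1 was most like Khc-73 (0.99), skd (0.99) and Alk (0.99), and Oamb was most like syd (0.99), plx (0.98) and haf (0.98). 5-HT1B had Eip78C (0.98), DIP-beta (0.97) and the octopamine receptor gene Octbeta1R (0.97) nearest to it. 5-HT7 had Epac (0.98), which encodes a cyclic AMP sensor, eag and Mef2 (0.98 each), and 5-HT2A had GABA-B-R2 (0.94), l(1)G0196 and Wnt5 (0.92 each). DopEcR was closest to UBL3, Frq2 and Cadps (0.98 each), Dop2R to Shawl, beat-VII and dpr8 (0.95 each), 5-HT1A to CG12531, aus and CG42404 (0.98 each), 5-HT2B to btsz (0.97), CG42450 (0.96) and CG43737 (0.96), and Dop1R2 to LIMK1 (0.96), Vav (0.95) and MTA1-like (0.95).

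The receptor genes lie on 4 chromosome arms, in the coordinates of BDGP6.54 (dm6). 5-HT1B (2R:19022325-19032642, minus strand) and 5-HT1A (2R:19067155-19121958, plus strand) are near neighbours. 6 genes are on 3R: 5-HT2A (4612870-4633304), 5-HT2B (8578205-8629996), Dop1R1 (14165379-14214810), Oamb (20689018-20714577), Dop1R2 (29630304-29659984) and 5-HT7 (30968236-31016875). DopEcR is on 3L (4367649-4380387) and Dop2R on X (20004680-20062706). No other annotated gene overlaps an exon of any of the 10 in this annotation. Whether kallisto shared reads between them and other genes was not tested. For 5-HT1A, 1 of its 2 annotated transcripts was quantified, and its total covers that transcript only.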

How the data were processed

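The authors deposited 1 table per library with estimated counts and TPM per transcript, for which the submitters' processing notes list kallisto 0.43.1 beside edgeR 3.18.1, CASAVA 1.7 and, as builds, GRCm38 and dm6. Libraries were made with the TruSeq kit from total RNA, per the labels. No source used here gives the strand setting or the annotation release. Of 30490 transcripts, 30255 matched Ensembl BDGP6.54 and 13821 genes; the rest held 0.396% to 0.514% of counts. Per gene, the estimated counts were added up and rounded to whole numbers. The deposited effective length, subtracted from length (unit: bases), gave the fragment length.

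Genes were tested in R 4.3.3 with edgeR 4.0.16 (quasi-likelihood F-test, robust; filterByExpr; TMM), 1 coefficient per group and Benjamini-Hochberg adjustment with a threshold of 0.05: 8 antennal libraries (11298 genes), 23 brain libraries (10431 genes), all 31 for tissues (11772 genes). CPM were normalised over all 31 libraries. Errors of levels are SD and of fold changes SE. Alternatives were DESeq2 1.42.0, limma 3.58.1 on log2(TPM + 1), other scalings, no filter, fewer libraries, a fragment length covariate (each length a class) and a replicate block. Likeness used log2 CPM with a prior count of 2. The script was tested on simulated data. Same-lettered 5-day libraries at 10 and 0 min deviated together (r = 0.48, 0.36 and 0.46), so the letters pair them by the rule of r over 0.1 in all pairs. Odor and light in OreR antennae met the same rule (r = 0.7). So did 30 against 0 min in 25-day brains (0.84) and 25 against 10 days at 30 min (0.43). In these duplicate groups r is the same for both letters. The block changed no count of receptors called in any of these comparisons.

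All 10 receptors, up to 4 called genes per pathway list, Orco, and the 3 genes most like each receptor are named. The members, the pathway lists and the marker lists were chosen with earlier results of these data known. No 2 replicates agreed within sampling noise.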

Additional observations from a re-analysis of the deposited data

How the results depend on the processing

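All 10 receptors stayed lower in OreR antennae than in 5-day brains under every alternative run; leaving out 1 library left 8 to 10 called. Odor and light called no receptor under any alternative. The alternatives below call receptors that edgeR did not call in the reported design. Between the genotypes, the fragment length covariate called 2 receptors at 0 min (10.1% of all genes) and 2 after odor and light (13.2%), and DESeq2 1 at 0 min (10%). In that covariate fit the genotype difference averaged over both states rests on Orco2 C and OreR B, the libraries of equal length. For 10 against 5 days, DESeq2 called 1 at 0 min (5.86%) and 1 in the mean of both times (10.7%), the compared libraries alone 6 in the mean (9.01%), and leaving out 1 library 0 to 1 in the mean (4.97% where 1). For 25 against 5 days, the fragment length covariate called 1 at 30 min (15.9%), DESeq2 2 (18.7%) and limma on TPM 2 (13.3%) in the mean, and leaving out 1 library 0 to 2 in the mean (13.7% to 31% where 2). For 25 against 10 days, leaving out 1 library gave 0 to 4 at 0 min (22.4% where 4) and 0 to 5 in the mean (30.9% and 35.9% where 5). An alternative chosen after seeing the data, without the 5 brain libraries low in ribosomal protein transcripts, called 1 in 10 against 5 days (mean; 6.88%), 1 in 25 against 5 days at 30 min (3.04%) and 4 in the mean (13.8%). The causes were not tested.

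With the replicate block, 3 receptors were called for 10 against 5 days at 0 min (13.5% of all genes) and 6 in the mean (21.8%), and for 25 against 5 days 3 at 0 min (15.1%), 1 at 30 min (21.1%) and 3 in the mean (35.6%, so the receptors' share is below that of all genes); it changed no other count of calls, and except for 10 against 0 min in 5-day brains the libraries share only a letter (deviations correlated from -0.51 to 0.84). With the letters crossed for 30 against 0 min in 10-day brains and for 25 against 10 days at 0 min, 0 receptors were called. No block was fitted between Orco2 and OreR, which share only letter B.

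Signs turned for receptors that were not called. With the fragment length covariate, Dop1R1 was at 0.036 for 25 against 5 days at 0 min. For 25 against 10 days at 0 min, leaving out 1 library at a time gave -0.098 to 0.792 for 5-HT7, -0.122 to 0.705 for DopEcR, -0.031 to 0.622 for Dop2R and -0.192 to 0.711 for 5-HT1B, the lowest without 25-day B and the highest without 25-day A. Without the 5 low libraries the same comparison gave -0.073 for 5-HT7, -0.097 for DopEcR, -0.006 for Dop2R, -0.167 for 5-HT1B, -0.116 for 5-HT1A and -0.052 for Dop1R2, with Oamb (0.094) and 5-HT2A (0.071) turned positive. In the mean of both times it gave -0.139 for 5-HT7, -0.087 for DopEcR, -0.003 for Dop2R, -0.003 for 5-HT2B, -0.162 for 5-HT1B, -0.126 for 5-HT1A, -0.153 for Dop1R2 and -0.002 for Dop1R1, with 5-HT2A (0.097) turned positive. On log2(TPM + 1) the median over all genes between antennae and brains was -0.36, against 0.17 in edgeR, and the receptors lay below either. The lowest level was that of Dop2R in antennae, at 1.38 to 5.50 CPM.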
